A study of Mus musculus with 4 samples.

Results

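Retinoic acid is a vitamin A derivative that acts as a patterning and differentiation signal in the embryo. Here 9 genes of its pathway were examined for open chromatin in the posterior forelimb bud. They were 1 synthesis enzyme (Aldh1a2), 2 clearance enzymes (Cyp26a1 and Cyp26b1), 2 cytosolic binding proteins (Crabp1 and Crabp2) and 4 nuclear receptors (Rara, Rarb, Rarg and Rxra), 9 of the 21951 protein-coding genes of the annotation. A peak was assigned to a gene if it overlapped the gene body or the 50 kb on either side of it. The 9 windows covered 1.56 Mb, or 0.0574% of the genome, and held 192 of the 75101 peaks of the series. After overlapping peaks (1 bp or more) were joined across libraries, the windows held 116 of 44692 regions.

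Open chromatin was profiled by ATAC-seq, a method that uses the Tn5 transposase to place sequencing adapters where DNA is exposed. The 4 libraries were prepared from posterior forelimb buds of E10.5 embryos (35 somites) on a Swiss Webster background, with a single pair of buds from 1 embryo per library, 5000 cells per reaction and 18 cycles of PCR. There were 2 wild-type libraries (WT rep1 and WT rep2) and 2 libraries from Shh-/- embryos (Shh-/- rep1 and Shh-/- rep2), which carry null alleles of Sonic hedgehog in every cell. The comparison asks whether accessibility around these genes differed when the Hedgehog ligand was missing.

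Retinaldehyde dehydrogenase 2, the product of Aldh1a2, carries out the last step of retinoic acid synthesis and in the limb is known mainly from the flank mesoderm and the proximal bud. CYP26 enzymes oxidize retinoic acid and keep distal limb mesenchyme low in the signal, and loss of Cyp26b1 shortens the limb. CRABP proteins bind retinoic acid in the cytosol, CRABP2 being able to carry it to the nucleus. Retinoic acid receptors (RARs) pair with retinoid X receptors (RXRs) on direct repeats of a short half-site, with DR5, DR2 and DR1 naming repeats spaced by that number of bases. DR5 elements at the promoters of Rarb and Cyp26a1 are classical targets, through which the signal induces its own receptor and its own removal.

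Both of these promoters held such a repeat. The half-sites, searched on both strands and with no mismatch, followed the general consensus of these receptors, which covers AGGTCA, its variant AGTTCA, and the forms GGGTCA and GGTTCA that begin with the other purine. This consensus includes the known elements at Rarb and Cyp26a1, so finding them is a check of the search and the shares that follow are descriptions. Over whole regions, 4 of the 116 regions held a DR5, compared with 110 of 44692 regions in the series (0.246%). Within 300 bp around the summit the match at Rarb was the only one (1 of 116, compared with 0.141% of all regions). With 1 mismatch allowed there, 3 of 116 regions held a DR5 (2.59%), near the 2.17% of all regions. In the RefSeq promoters (250 bases before to 50 after a start, assembly GRCm38.p6, in which 8 of the 9 genes had an entry), 2 of 13 held a DR5, compared with 32 of 32851 promoters (0.0974%). Both RefSeq promoters are printed 5′ to 3′ on the strand of the gene, with the repeat and its 5 spacer bases in capitals. The Rarb promoter lies at chr14:16575427-16575726 on the minus strand, and the Cyp26a1 promoter at chr19:37697558-37697857 on the plus strand.
Rarb promoter: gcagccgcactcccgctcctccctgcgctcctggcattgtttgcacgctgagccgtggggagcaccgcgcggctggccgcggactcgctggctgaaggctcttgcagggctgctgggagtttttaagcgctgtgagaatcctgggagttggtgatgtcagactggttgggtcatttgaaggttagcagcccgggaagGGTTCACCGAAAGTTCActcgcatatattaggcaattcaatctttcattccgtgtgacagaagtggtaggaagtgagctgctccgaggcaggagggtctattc
Cyp26a1 promoter: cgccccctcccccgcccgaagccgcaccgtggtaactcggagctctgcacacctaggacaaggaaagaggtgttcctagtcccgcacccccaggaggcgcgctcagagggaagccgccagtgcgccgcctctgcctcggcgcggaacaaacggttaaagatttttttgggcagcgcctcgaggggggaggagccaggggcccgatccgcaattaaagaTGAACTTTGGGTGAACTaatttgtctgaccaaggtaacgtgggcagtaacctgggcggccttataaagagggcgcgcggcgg

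The Rarb repeat (chr14:16575513-16575529) started 53 bases before the RefSeq start and its middle lay 22 bp downstream of the nearest start of the GENCODE annotation. It was inside a called peak in WT rep1, WT rep2 and Shh-/- rep2, and 20300 bp from the nearest peak in Shh-/- rep1. The Cyp26a1 repeat (chr19:37697776-37697792) read on the strand opposite to the gene, and its middle lay 14 bp before the transcription start site (TSS). A peak of WT rep1 covered it, and no other library had a peak within 10 kb. The remaining DR5 matches were in Rara and Rarg. Each is shown within 120 bp of mm10 sequence, on the strand on which the repeat reads forward, again with the repeat and its spacer in capitals. The Rara window is chr11:98959956-98960075 (plus strand, repeat at chr11:98960008-98960024) and the Rarg window is chr15:102250765-102250884 (minus strand, repeat at chr15:102250817-102250833).
Rara intronic promoter: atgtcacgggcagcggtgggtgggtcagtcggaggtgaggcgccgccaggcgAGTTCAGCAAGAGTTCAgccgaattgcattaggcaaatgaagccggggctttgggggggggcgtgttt
Rarg intron: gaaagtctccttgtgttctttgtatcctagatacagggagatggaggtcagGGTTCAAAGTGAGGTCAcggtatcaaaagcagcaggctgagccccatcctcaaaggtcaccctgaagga

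At Rara the repeat lay 396 bp before the start of an internal transcript. It was inside the WT rep1 peak of the region and 117 bp outside the Shh-/- rep2 peak. At Rarg it lay 4325 bp upstream of the internal start of the gene, inside an intron of the longer transcript. The WT rep2 peak covered it, and the WT rep1 peak of the same region ended 43 bp away. A DR1 (chr15:102250828-102250840) shared a half-site with this DR5. One further DR1 was found in the Rxra window and 1 DR2 in the Crabp2 promoter region (chr3:87947525-87947538), where it was inside the peaks of both WT libraries and 24 bp outside the nearest peak of Shh-/- rep2. These matches are letters in a window and do not show that a receptor was bound.

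The lists differed widely in size, and this bears on every count. WT rep1 had 39080 peaks, WT rep2 had 11973, Shh-/- rep1 had 5589 and Shh-/- rep2 had 18459, so that the 2 libraries of a genotype differed by more than 3-fold. The study states a common target for sequencing depth, but the usable reads behind each list are not in the lists, and a peak that is missing was not called, which does not show closed chromatin. The strength of a peak was therefore read only as its percentile within its own list, where a low percentile is a high score. Among markers of the tissue, 6, 3, 2 and 3 of 6 limb mesenchyme markers had a promoter peak in WT rep1, WT rep2, Shh-/- rep1 and Shh-/- rep2. The shares over all protein-coding genes were 60.4%, 39.2%, 17.2% and 51.2% in that order. Prrx1 was called in all 4 libraries, Msx1 and Twist1 in 3, and Prrx2 in both WT libraries alone. Tbx5 and Hand2 were called in WT rep1 alone. Of 5 ectoderm markers 2, 0, 0 and 2 were called in the same order, of 4 endothelial markers 1, 0, 0 and 1, of 3 blood markers 1, 1, 0 and 1, of 3 muscle progenitor markers 3, 1, 0 and 3, and of 2 hindlimb markers 2, 0, 0 and 1.

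In the windows of the 9 genes, WT rep1 had 96 peaks, WT rep2 had 31, Shh-/- rep1 had 16 and Shh-/- rep2 had 49. The order of the libraries was that of their list sizes. The mean was 63.5 ± 46.0 in WT and 32.5 ± 23.3 in Shh-/- (SD, n = 2 each), a difference of 31 peaks that was smaller than the SD of WT but larger than that of Shh-/- (two-sided exact permutation test, p = 0.667, with 0.333 the smallest p that 2 against 2 libraries allow). Without WT rep1 the difference was -1.5 peaks. As a share of the list, the windows held 0.246% of the peaks of WT rep1 (Wilson 95% interval from 0.201 to 0.300), 0.259% of WT rep2 (from 0.182 to 0.367), 0.286% of Shh-/- rep1 (from 0.176 to 0.464) and 0.265% of Shh-/- rep2 (from 0.201 to 0.351). On this scale the Shh-/- libraries were both above the WT libraries, by a small margin (WT minus Shh-/-, -0.0236 percentage points), and every interval overlapped the others (two-sided exact permutation test, p = 0.333). These intervals hold only the error of counting.

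**Figure D1:**
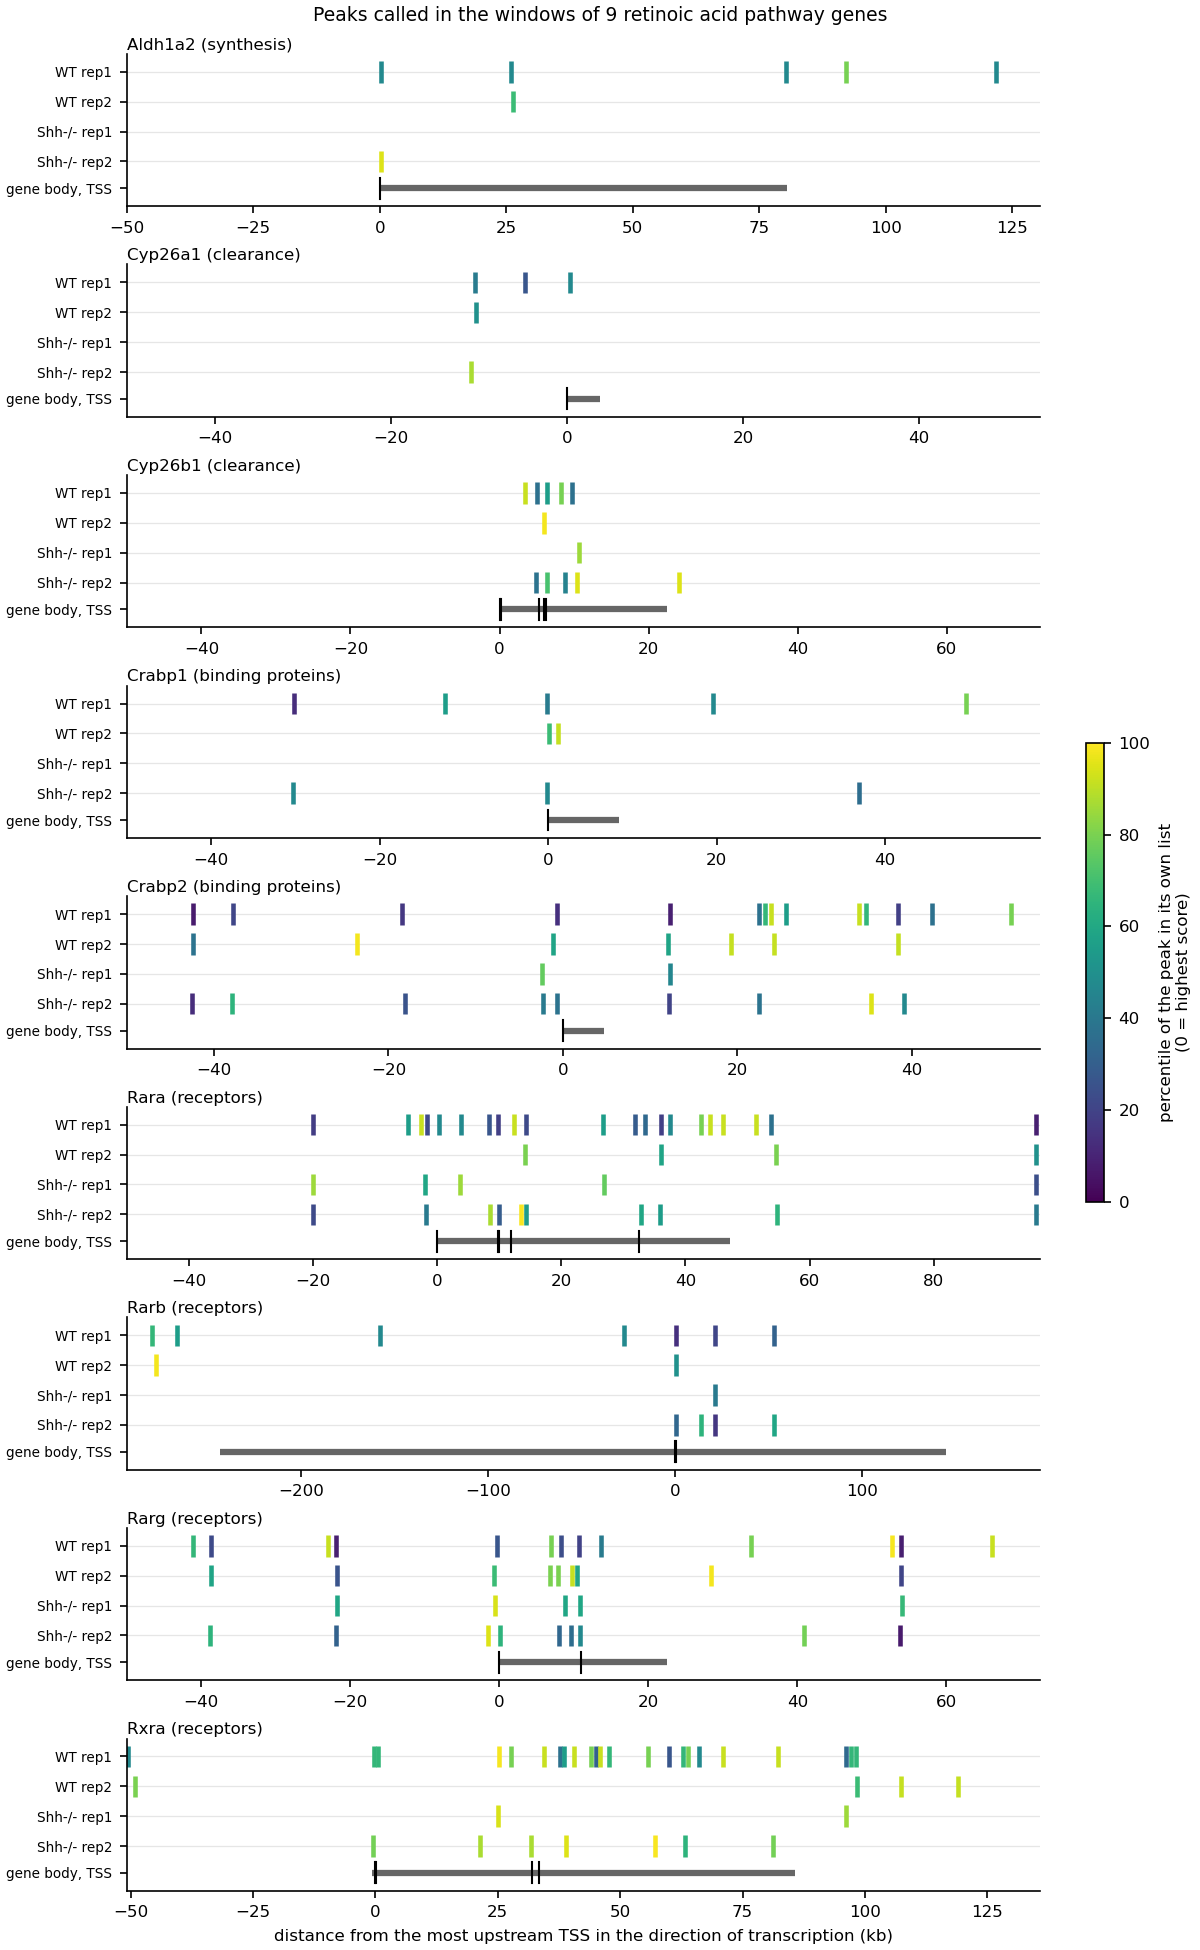
Peaks in the windows of the 9 genes, 1 panel per gene and 1 row per library. The horizontal axis is the distance in kb from the most upstream TSS in the direction of transcription, grey bars are gene bodies, black ticks are TSSs, and each coloured tick is the summit of a called peak, coloured by its percentile in its own list (0 is the highest score). Aldh1a2, Cyp26a1 and Crabp1 have 3 to 5 peaks in WT rep1 and none in Shh-/- rep1, whereas Rarg has 5 to 13 peaks in every library.

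Peaks were unevenly divided among the roles. Receptors held 64, 19, 13 and 30 peaks in WT rep1, WT rep2, Shh-/- rep1 and Shh-/- rep2. The binding proteins held 19, 9, 2 and 12, the clearance enzymes 8, 2, 1 and 6, and Aldh1a2 held 5, 1, 0 and 1. Receptors were also the role with the most genes and the longest windows. Per 100 kb the receptor windows held 6.78, 2.01, 1.38 and 3.18 peaks and those of the binding proteins 8.92, 4.22, 0.939 and 5.63, so that receptors were ahead in Shh-/- rep1 alone. The clearance windows held 3.54, 0.884, 0.442 and 2.65 per 100 kb, and Aldh1a2 held 2.77, 0.554, 0 and 0.554. Among the receptors, the Rarb window was the longest (488 kb) and held 7, 2, 1 and 4 peaks, whereas the Rarg window (123 kb) held 13, 9, 5 and 9. Per 100 kb, Rarg had 10.6, 7.34, 4.08 and 7.34 peaks, and the matching medians over the windows of all protein-coding genes were 1.99, 0.853, 0 and 1.26. The windows of Crabp2, Rara and Rarg were above at least 82.98% of genes on this measure in each library. The Rarb window was below the median gene of WT rep1, WT rep2 and Shh-/- rep2. In the Crabp2 window only 1, 1, 1 and 2 peaks lay in its own promoter region or gene body. At Rara these were 16, 2, 3 and 7, and at Rarg 5, 5, 3 and 5. No role differed between the genotypes by more than the WT libraries differed from each other (two-sided exact permutation tests, p = 0.667 for each of 4 roles). The differences (WT minus Shh-/-) were 2.5 peaks for Aldh1a2, 1.5 for clearance, 7 for binding proteins and 20 for receptors.

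**Figure D2:**
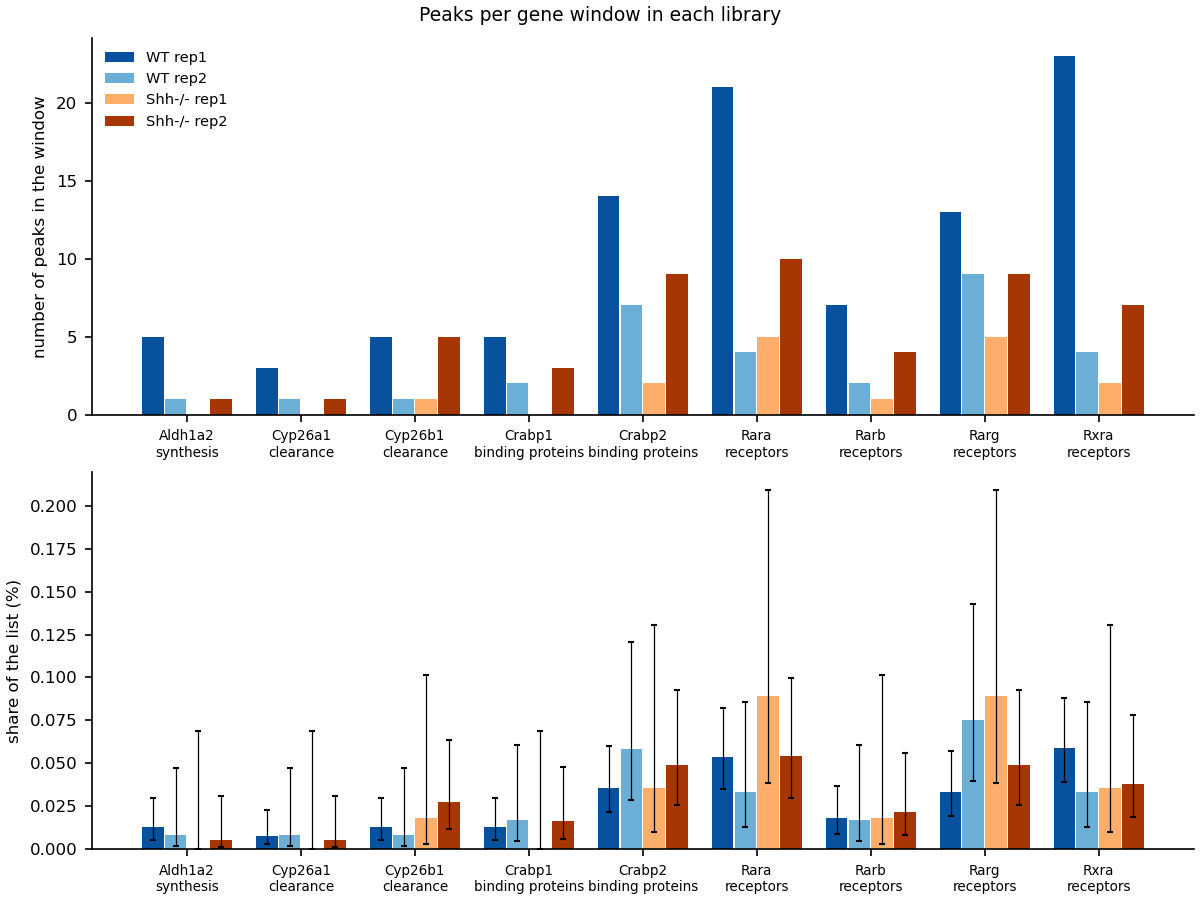
Number of peaks in the window of each gene (upper panel) and the same number as a percent of the library's list (lower panel), with 1 bar per library and no replicates within a bar. Error bars in the lower panel are Wilson 95% intervals, which hold only the error of counting. WT rep1 has the most peaks at every gene except Cyp26b1, where it ties with Shh-/- rep2 at 5, and the intervals of the shares overlap between libraries.

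The genes had 1 to 5 annotated TSSs each. Promoter peaks, within 2 kb before to 1 kb after a TSS, were called at all 9 genes in WT rep1, where 60.4% of protein-coding genes had one. They were called at 5 genes in WT rep2 (39.2% of all genes), at 2 in Shh-/- rep1 (17.2%) and at 8 in Shh-/- rep2 (51.2%). Rarg was the 1 gene called in all 4 libraries, a pattern seen at 16.1% of all genes, and 5 genes were called in all remaining libraries without Shh-/- rep1 and 2 without WT rep2. Rara lacked a promoter peak in WT rep2 alone. Crabp1, Crabp2, Cyp26b1 and Rarb lacked one in Shh-/- rep1 alone. Aldh1a2 and Rxra had a promoter peak in WT rep1 and Shh-/- rep2, the libraries with the longest lists. Cyp26a1 had one only in WT rep1. No promoter of the 9 genes was called in both libraries of one genotype and neither of the other. The share of all genes with this pattern was not counted. Over all regions of the series, 2.09% were called in both WT libraries alone and 0.396% in both Shh-/- libraries alone.

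The called promoter peaks were of middling strength. The median percentile of the best promoter peak was 37 in WT rep1 (9 genes), 58.3 in WT rep2 (5 genes), 59.2 in Shh-/- rep1 (2 genes) and 38 in Shh-/- rep2 (8 genes). All called genes had medians of 17.8, 33.3, 40.7 and 31.1 in the same lists, so that the member medians were lower in the ranking in each.

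**Figure D3:**
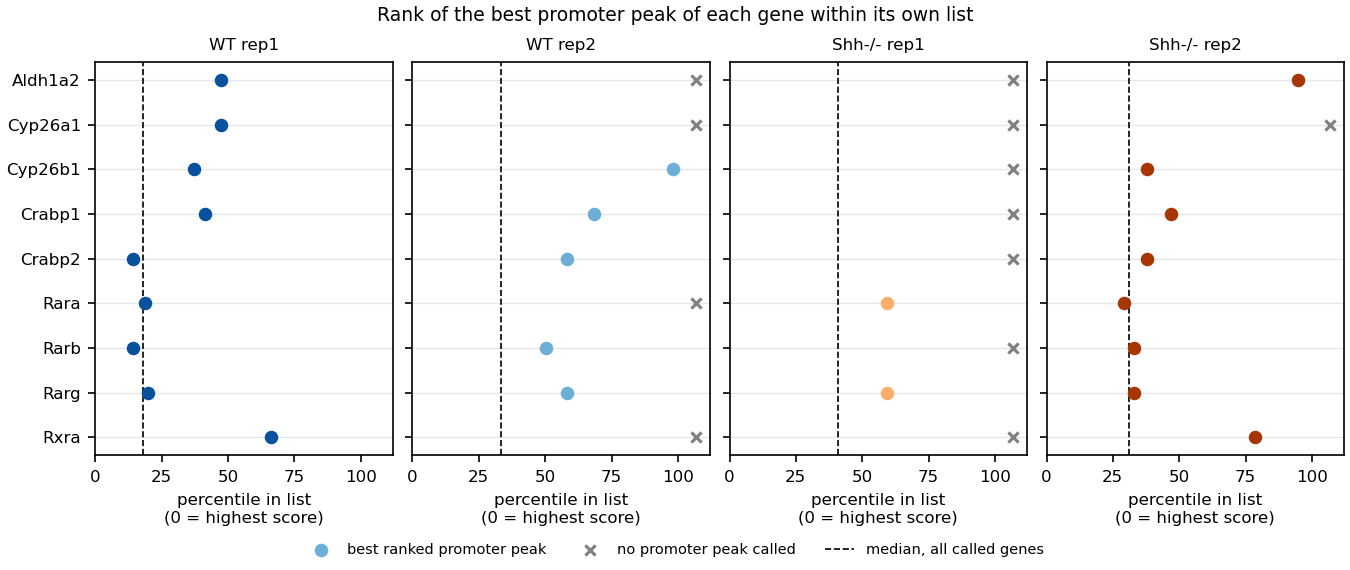
Percentile of the best ranked promoter peak of each gene within its own list (0 is the highest score), 1 panel per library. Dots are genes, crosses mark genes with no promoter peak called, and the dashed line is the median over all protein-coding genes with a promoter peak. Crabp2, Rara, Rarb and Rarg lie nearest to that line in WT rep1, and Aldh1a2 and Rxra are the lowest ranked in Shh-/- rep2 at 94.8 and 78.7.

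Aldh1a2, the synthesis enzyme, had few calls. Its promoter region (chr9:71215787-71216175) was called in WT rep1 at percentile 47.2 and in Shh-/- rep2 at 94.8, and the Shh-/- rep2 peak began 2 bp before the TSS. The promoter itself was rich in bases G and C (78% of the RefSeq promoter, above 98.1% of promoters). The other 4 regions of the window lay elsewhere. One of them, in the first intron 26.0 kb into the gene (chr9:71241578-71242149), was among 2 regions of the 9 windows that had a call in WT rep1 and WT rep2 but in neither Shh-/- library. Its peaks ranked at percentile 47.2 in WT rep1 and 68.3 in WT rep2. They overlapped by 257 bp, but their summits were 319 bp apart, so that the region was not shared when peaks were joined by summits within 250 bp. The other 3 regions were called in WT rep1 alone, in the last exon at percentile 47.2 and in the downstream flank at 79.5 and 47.2. The mm10 plus strand around the WT rep1 summit of the intronic region (chr9:71241598-71241897) is printed because this was the only genotype-specific call at the synthesis gene, and it held no exact DR5, DR2 or DR1.
Aldh1a2 first intron: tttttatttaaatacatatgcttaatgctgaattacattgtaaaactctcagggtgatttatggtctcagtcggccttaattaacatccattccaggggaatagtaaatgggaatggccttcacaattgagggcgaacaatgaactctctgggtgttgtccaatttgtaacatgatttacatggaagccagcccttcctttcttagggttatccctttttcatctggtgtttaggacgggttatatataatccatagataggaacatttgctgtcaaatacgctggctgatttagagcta

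Cyp26a1 and Cyp26b1, the clearance enzymes, differed from each other. Cyp26a1 had 3, 1, 0 and 1 peaks (WT rep1, WT rep2, Shh-/- rep1 and Shh-/- rep2), and Cyp26b1 had 5, 1, 1 and 5. The Cyp26a1 promoter region (chr19:37697345-37698136) was called in WT rep1 alone at percentile 47.2. A region 10475 bp upstream (chr19:37686862-37687746) was called in 3 libraries, at percentile 41.4 in WT rep1, 50.3 in WT rep2 and 87.2 in Shh-/- rep2. It lay in the third exon of Cyp26c1, the neighbouring gene for another enzyme of the same family, and the Shh-/- rep2 peak did not overlap that of WT rep2. When peaks were joined by summits within 250 bp, the WT peaks formed a region and the Shh-/- rep2 peak stood apart from it. The best ranked Cyp26a1 region outside the promoter was 4.72 kb upstream, in the last exon of Cyp26c1 (chr19:37692824-37693325), called in WT rep1 alone at percentile 26.9.

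Cyp26b1 had 3 promoter regions, all at or near the internal starts of the gene. Region chr6:84587288-84588000 was called in WT rep1, WT rep2 and Shh-/- rep2, at percentiles 55.3, 98.2 and 71.1. The neighbouring region chr6:84588718-84589307 ranked higher, at 37.0 in WT rep1 and 38.0 in Shh-/- rep2, and chr6:84590246-84590455 was called in WT rep1 alone at 91.8. Both of the most upstream starts were at least 3291 bp from any peak. An intronic region 3557 bp downstream of the nearest start (chr6:84583099-84584335) gave the gene its only call in Shh-/- rep1, at percentile 85.4, with 37.0 in WT rep1 and 94.8 in Shh-/- rep2. Its summits spread over 928 bp, so the 3 libraries were not called at one point.

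Crabp1 had 5, 2, 0 and 3 peaks and Crabp2 had 14, 7, 2 and 9. The Crabp1 promoter region (chr9:54764383-54765305) was called at percentile 41.4 in WT rep1, 68.3 in WT rep2 and 47.0 in Shh-/- rep2. A region 1.15 kb into the gene (chr9:54765722-54765937), in its second intron, was called in WT rep2 alone at 91.0. The best ranked region outside promoters lay 36.9 kb downstream of the TSS (chr9:54801464-54802016) and was called in Shh-/- rep2 alone at 35.4. The highest ranked peak in the Crabp1 window, at percentile 12.8 in WT rep1, belonged to the promoter of Wdr61.

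Crabp2 had the strongest calls among the binding proteins. A merged region of 3534 bp (chr3:87945621-87949154) spanned its promoter, through a single WT rep1 peak at percentile 14.04. WT rep2 was called inside it at 58.3 and Shh-/- rep2 at 38.0. The Shh-/- rep1 peak of this region, at 76.0, lay 2264 bp from the TSS and outside the promoter window. Shh-/- rep2 had a second peak there, at 40.8, with a summit 139 bp from that of Shh-/- rep1. Farther away, 12.3 kb downstream of the TSS and between genes, chr3:87960409-87961156 was the only region outside promoters in the 9 windows with a call in all 4 libraries. Its percentiles were 8.95 in WT rep1, 58.3 in WT rep2, 45.9 in Shh-/- rep1 and 20.0 in Shh-/- rep2, each at or above the rank of the best Crabp2 promoter-region peak of the same library. The sequence around the WT rep1 summit (chr3:87960843-87961142, mm10 plus strand) is printed because no other region outside promoters was called in every library, and it held no exact DR5, DR2 or DR1.
Crabp2 downstream region: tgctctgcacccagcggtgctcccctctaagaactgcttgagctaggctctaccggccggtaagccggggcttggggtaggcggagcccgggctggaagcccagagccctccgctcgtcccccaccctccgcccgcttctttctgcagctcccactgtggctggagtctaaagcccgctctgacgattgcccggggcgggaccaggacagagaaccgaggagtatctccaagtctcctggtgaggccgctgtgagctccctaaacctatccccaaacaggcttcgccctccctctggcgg

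A further Crabp2 region 38.4 kb downstream (chr3:87986658-87988322) was called in WT rep1 at percentile 18.8, in WT rep2 at 91.0 and in Shh-/- rep2 at 47.0, and joining by summits again set the Shh-/- rep2 peak apart from those of WT. In the Crabp2 window 5 of the 18 regions were promoters of neighbours (Hdgf, Isg20l2 with Rrnad1, Nes and Bcan). Leaving all such neighbouring promoters out of the 9 windows gave a difference between the genotypes of 28 peaks.

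Rara, the most widely expressed of the RARs, had 21, 4, 5 and 10 peaks. At its own promoters lay 7 of its 20 regions. The upstream region chr11:98925225-98926396 was the only one called in Shh-/- rep1, at percentile 59.2, with 22.3 in WT rep1 and 40.8 in Shh-/- rep2. The region at the start of the shorter transcripts (chr11:98937298-98938596) ranked highest, at 18.8 in WT rep1 and 29.2 in Shh-/- rep2. Beside it, chr11:98936031-98936990 was called in the same libraries at 26.9 and 87.2. The region with the DR5 (chr11:98959442-98960708) was called at 28.8 and 59.3. The remaining promoter regions (chr11:98927952-98928536, chr11:98939936-98940231 and chr11:98961180-98961556) were called in WT rep1 alone. WT rep2 had no promoter peak at Rara but was called in 2 introns, at chr11:98940745-98942641 (percentile 79.9, with 22.3 in WT rep1 and 54.8 in Shh-/- rep2) and at chr11:98962401-98964551 (58.3, with 18.8 and 54.8). At the second of these, the WT summits were 5 bp apart.

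Rarb, the receptor gene that retinoic acid itself induces, had few calls, with its promoter among the best ranked of the 9 genes. Its promoter region (chr14:16575057-16575903) had percentiles of 14.04 in WT rep1, 50.3 in WT rep2 and 33.1 in Shh-/- rep2, the highest rank among member promoters in WT rep2 and level with Crabp2 in WT rep1. The annotated gene (chr14:16430839-16819156, minus strand) reached far upstream of both GENCODE starts used here, so promoter calls cover those starts only. An intronic region 20.7 kb downstream of the nearest start (chr14:16554504-16555271) was called in WT rep1 at 21.1, in Shh-/- rep1 at 40.7 and in Shh-/- rep2 at 15.9. The 3 summits lay within 13 bp of each other. WT rep2 had no peak within 19964 bp of it. This was the best ranked region of the window in both Shh-/- libraries, and its sequence around the summit (chr14:16554648-16554947, mm10 plus strand) is printed because it was the most precisely shared of the intronic regions. It held no exact DR5, DR2 or DR1.
Rarb intron: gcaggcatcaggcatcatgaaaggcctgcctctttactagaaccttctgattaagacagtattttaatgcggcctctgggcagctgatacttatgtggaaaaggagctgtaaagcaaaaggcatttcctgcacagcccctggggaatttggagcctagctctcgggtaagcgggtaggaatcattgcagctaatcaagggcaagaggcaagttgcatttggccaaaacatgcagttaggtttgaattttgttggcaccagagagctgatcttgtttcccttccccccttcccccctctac

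When only the 5589 peaks with the highest scores were kept in each list, this Rarb region was called in both Shh-/- libraries and in neither WT library, since the WT rep1 peak ranked 8231. A region at the promoter of Cdc6, in the Rara window, behaved the same way. The share of all regions with this pattern at that list size was not counted. At this list size the windows held 8, 3, 16 and 7 peaks.

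Rarg, the RAR known from mesenchyme and cartilage, was the gene most evenly called, with 13, 9, 5 and 9 peaks. Of its 4 promoter regions, 2 had promoter calls in all 4 libraries. At the internal start, chr15:102245748-102248351 had best percentiles of 19.9 in WT rep1, 58.3 in WT rep2, 59.2 in Shh-/- rep1 and 35.4 in Shh-/- rep2. Just upstream of it, chr15:102248430-102249870 had 23.6, 79.9, 59.2 and 33.1, but only its Shh-/- rep2 peak reached into the promoter window. At the first start, chr15:102256501-102258590 had 26.9, 68.3, 94.0 and 64.7. These regions were broad in WT rep1, with peaks of 2604, 1242 and 2090 bp. The summits in each were spread over 1146, 873 and 771 bp, so a shared call was not a shared position. Another promoter region (chr15:102259060-102259270) was called in Shh-/- rep2 alone at 94.8.

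The second region called in both WT libraries alone was the Rarg intron with the DR5 (chr15:102250392-102250966), 4.09 kb upstream of the nearest start. Its peaks were weak, with percentiles of 79.5 in WT rep1 and 79.9 in WT rep2, and they overlapped by 127 bp with summits 86 bp apart. The best ranked Rarg region outside promoters was a WT rep1 call at 41.4 (chr15:102242988-102243921). Promoters of Zfp740 and Mfsd5, in the flanks of the Rarg window, and of Top2a, in that of Rara, were also called in all 4 libraries.

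Rxra, the shared partner of the RARs, had 23, 4, 2 and 7 peaks. Of its 31 regions, 26 were called in a single library (83.9%, compared with 64.2% of all regions). Regions called in WT rep1 alone were 18 of the 31 (58.1%, compared with 51.6% of all regions). None of the 31 was called in 3 or 4 libraries. The promoter region (chr2:27676418-27677115) was called in WT rep1 at percentile 66.3 and in Shh-/- rep2 at 78.7, with a G and C content of 71% around its summit. Of the other promoter regions, chr2:27677744-27678026 (66.3) and chr2:27711583-27711787 (91.8) were called in WT rep1 alone and chr2:27708941-27709171 (87.2) in Shh-/- rep2 alone. In the gene body lay 19 regions. The best ranked of these was a WT rep1 call at 26.9, 26.6 kb from the nearest start (chr2:27737002-27737327). WT rep2 had no peak in the Rxra promoter or gene body, and its 4 peaks were in the flanks.

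Over the 116 regions, the sharing of calls followed the whole series in most patterns. Regions called in WT rep1 alone numbered 54 (46.6%, compared with 51.6% of all regions), and 13 were called in WT rep1 and Shh-/- rep2 alone (11.2%, compared with 11.0%). All 4 libraries shared 8 (6.90%, compared with 7.97%). The 2 WT-specific regions were 1.72% of the windows' regions, compared with 2.09% of all regions, and 0 were Shh-specific, compared with 0.396%. All these shares were near those of the series. The 2 WT-specific regions became 56 without WT rep2, 13 without WT rep1 and 12 without Shh-/- rep2. The 0 Shh-specific regions became 11 without Shh-/- rep1 and 4 without WT rep1. Without WT rep2, a WT-specific region needed only a call in WT rep1 and none in Shh-/-. A call in WT rep1 alone was the commonest pattern of the series (51.6%). The shares of all regions with 1 library left out were not counted. Some other patterns departed from the series. Calls in WT rep2 alone numbered 10 (8.62%, compared with 4.28%). At Rara and Rxra, 2 regions each, 4 in all, were called in WT rep1 and Shh-/- rep1 alone (3.45%, compared with 0.418%). None was called in Shh-/- rep1 alone, compared with 1.01%.

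**Figure D4:**
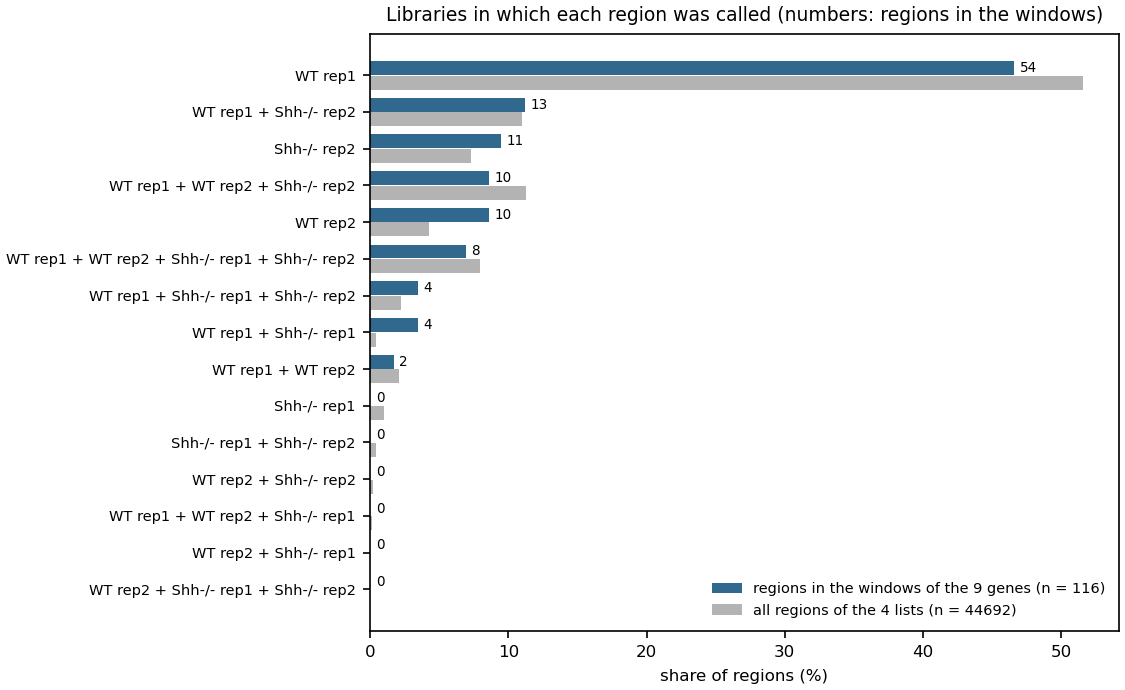
Share of regions (percent) by the set of libraries in which they were called, for the 116 regions in the windows of the 9 genes (blue, with their number beside the bar) and for all 44692 regions of the series (grey). The commonest pattern in both sets was a call in WT rep1 alone (46.6% and 51.6%), and 2 regions of the windows were called in both WT libraries alone.

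Regions at promoters were called more often than the others in each library. Of the 38 regions at a promoter of any protein-coding gene, 35 were called in WT rep1 (92.1%, compared with 93.8% of such regions in the series), 14 in WT rep2 (36.8% and 52.1%), 9 in Shh-/- rep1 (23.7% and 21.2%) and 26 in Shh-/- rep2 (68.4% and 70.9%). Of the 78 regions elsewhere, 60 (76.9%), 16 (20.5%), 7 (8.97%) and 20 (25.6%) were called, compared with 83.1%, 12.4%, 7.49% and 24.7% in the series. Among those 78 regions, 61 were called in 1 library, 10 in 2, and 7 in 3 or 4. The matching shares over regions of the series outside promoters were not counted. Over all locations, 64.7% of the 116 regions were called in 1 library, compared with 64.2% of all regions. The median G and C content around summits was 60.8% in own promoters, 54.7% in gene bodies and 55.3% in flanks.

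The consensus of the GLI factors that transduce Hedgehog signals (TGGGTGGTC, either strand, at most 1 mismatch, within 300 bp around the summit) was matched in 7 of the 116 regions (6.03%), compared with 8.46% of all regions. In the Rxra window lay 5 of the matched regions, 4 of them called in WT rep1 alone and 1 in WT rep2 alone. The others were both Crabp1 promoter regions. None of the 7 matches was exact, though over whole regions 1 exact match lay in the Rarg window, at the promoter of Espl1 (chr15:102296071-102296079), and neither WT-specific region held one. The share was thus near that of the series.

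A further 15 genes of retinoid metabolism and response were read by their promoters. Promoter peaks were called at 10 of them in WT rep1, 9 in WT rep2, 4 in Shh-/- rep1 and 11 in Shh-/- rep2. The shares over all protein-coding genes were 60.4%, 39.2%, 17.2% and 51.2% in the same order. A call in every library, seen at 16.1% of all genes, was found at 4 of the 15. These were Rdh10 (retinol dehydrogenase, the step before Aldh1a2), Dhrs3 (which returns retinaldehyde to retinol), Stra6 (the retinol uptake receptor) and Rxrb (another RXR). Aldh1a1, a synthesis enzyme, and Cyp26c1, a clearance enzyme, had no promoter peak in any library. No gene of the 15 was called in both libraries of one genotype alone, a pattern whose share over all genes was not counted.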

How the data were processed

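ATAC-seq was analysed in 4 libraries, grouped by the genotype in their labels. According to the submitters' processing notes and the study's methods, the authors aligned reads to mm10 (the notes name Bowtie2 2.2.5) and called peaks in each library separately with MACS2 2.1.0 (q-value cutoff 0.05, window 200 bp). A shift of reads for Tn5 is not given in the sources used here. The authors deposited each peak with a score, whose scale the files do not state. It depends on depth, so it was used only for ranks within a list (ties at their mean rank). No counts were held, so the limma fit to signal that the study used was not run. The 4 lists differed in size, and no pair was identical. Whether same-numbered libraries were paired is not given.

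Peaks were merged where they overlapped by at least 1 bp and annotated with GENCODE M21 (basic). Promoters ran from 2 kb before to 1 kb after a TSS. Distances run from the summit of the best ranked peak to the nearest TSS. Regions given in full were all promoter regions of the 9 genes, genotype-specific regions, regions outside promoters in 3 or 4 libraries, and the best ranked region outside promoters of each gene. The members and lists were chosen with earlier results of these data known. Group means were compared by two-sided exact permutation tests in Python 3.11.15 with scipy 1.17.1, and the code was tested on simulated data. P-values measure only the spread between these libraries, in which differences between embryos and between preparations cannot be told apart. The effects of list size, window, left-out libraries and motif settings are given in the closing section. One gene of the list of other retinoid genes is not reported here by name.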

Additional observations from a re-analysis of the deposited data

How the results depend on the processing

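With 2 libraries a group, no test could pass 0.05, so the alternatives bear on directions and counts. Over 9 genes the difference in peak number (WT minus Shh-/-, 31) was -6 at equal list size, -0.0236 as a percent of the list (a measure chosen after seeing the data), and from -1.5 to 63.5 with 1 library left out (-1.5 without WT rep1). It was positive or 0 under the other alternatives. With the replicate block (sign flips within replicate numbers) it was 31, with an exact permutation p of 1, where 0.5 is the smallest p possible. With 2 pairs and no shared litter or day given, the numbers may be labels only. For clearance (1.5) the difference was -0.5 at equal list size, -0.00661 as a percent of the list, and from -1.5 to 4.5 with 1 library left out, including -1 without Shh-/- rep1. For synthesis (2.5) it was 0 at equal list size and at a score of at least 50, and from 0.5 to 4.5 with 1 library left out. For binding proteins (7) it was -0.5 at a score of at least 50, 0 at equal list size, 0.5 with 10 kb windows, and from 2 to 12 with 1 library left out. For receptors (20) it was -5.5 at equal list size, -0.5 at a score of at least 50, -0.0363 as a percent of the list and from -2.5 (without WT rep1) to 42.5 with 1 library left out.

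WT-specific regions (2) numbered 3 when joined by summits (at Cyp26a1, Crabp2 and Rarg, without that of Aldh1a2), 0 at equal list size, 0 at a score of at least 50, and 2 to 56 with 1 library left out (13 without WT rep1, 56 without WT rep2, 12 without Shh-/- rep2). Shh-specific regions (0) numbered 2 at equal list size, 1 when joined by summits (upstream of Crabp2), and 0 to 11 with 1 library left out (4 without WT rep1, 11 without Shh-/- rep1). The shares of all regions in either class under these settings were not counted. At equal list size, member promoters called fell to 2 in WT rep1, 0 in WT rep2, 1 in Shh-/- rep2 and 0 in all 4 libraries. A score of at least 50 left 0 in WT rep2 and 0 in all 4 libraries, and 500 bp either side of a TSS left 1 in Shh-/- rep1. With 1 library left out, 1 to 5 promoters were called in all the remaining libraries (5 without Shh-/- rep1, 2 without WT rep2). The median promoter percentile of Shh-/- rep1 was 57.04 with ties ordered by position. Taking the peak with its summit nearest to a TSS gave 55.83 in Shh-/- rep2, compared with 37.96 for the best ranked peak. In WT rep1 it gave 41.36, compared with 36.95, and the medians of WT rep2 and Shh-/- rep1 did not change. Searching whole regions gave 4 regions with a DR5 (3.45%, compared with 0.246% of all regions), 1 with a DR2 (0.862% and 0.385%) and 2 with a DR1 (1.72% and 0.613%). A GLI match was found in 17 (14.7% and 14.5%). Within 300 bp around summits, 1 mismatch gave 3 regions with a DR5 (2.59%, compared with 2.17%), 2 with a DR2 (1.72% and 2.66%) and 3 with a DR1 (2.59% and 3.26%). With 1 mismatch the shares were thus near those of the series. An exact GLI match gave 0 there, compared with 0.483%. The cause of these moves was not tested beyond what each setting leaves out.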
